A study of Rattus norvegicus with 24 samples.

Results

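The ventral tegmental area (VTA) was compared between male F1 rats of reciprocal crosses of F344 (Fischer) and BN (Brown Norway) inbred rats. Of the 24 RNA-seq libraries of the series, the 8 VTA libraries were chosen by their labels, 1 per rat and 4 per cross. In cross A (rats 1, 2, 11 and 15) the father was F344 and the mother BN. In cross B (rats 3, 4, 13 and 16) the father was BN and the mother F344, and the study bred several pairs. By their labels, rats 1, 2, 3 and 4 had been injected with nicotine (0.4 mg/kg daily for 4 days) and the other 2 rats of each cross with saline. Nicotine was then delivered by vein to all 8 rats over 6 sessions, at a dose of 30 µg/kg and 10 infusions a session. Per the paper, rats pressed a lever to self-administer it, and passive infusions made up the 10. The paper reports that cross A rats were inclined to self-administer and cross B rats were not. Cross and self-administration therefore cannot be told apart here. The tissue was dissected by hand on day 15. No rat in the comparison was nicotine-free, so the values describe the crosses after nicotine and not before it. The comparison asks whether expression in this region differed with the direction of the cross. Libraries are named here by cross and rat (A 1, B 16).

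The VTA holds the dopamine neurons that project to the nucleus accumbens, together with GABA and glutamate neurons, and nicotinic acetylcholine receptors on these cells are a site at which nicotine acts on reward. Reciprocal F1 males carry the same autosomal alleles, but they differ in which parent passed on each allele. They also differ in the sex chromosomes and in mitochondrial DNA: a male takes the X chromosome and the mitochondria from the mother and the Y chromosome from the father. Cross A males therefore carry a BN X and an F344 Y, and cross B males an F344 X and a BN Y. Imprinted genes are expressed mainly or only from the allele of one parent.

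The total of estimated counts per VTA library ranged from 17856705 (A 2) to 24405856 (A 11). Levels are given as CPM, read counts of a gene scaled to a common library size. Markers of the labelled tissue were present in 7 of the 8 libraries. Slc6a3, the dopamine transporter, was at 702, 1136 and 952 CPM in A 1, A 11 and A 15, and at 688, 1139, 1317 and 1009 CPM in B 3, B 4, B 13 and B 16. The library labelled A 2 held 20.8 CPM, which was 2.06% of the median of the other 7. Slc18a2, the vesicular monoamine transporter, was at 3.99 CPM in A 2 and at 159 to 296 CPM elsewhere. The summed CPM of 14 dopamine neuron markers was 316 in A 2 and 1575 to 2783 in the others. Transcripts of cortex and hippocampus neurons were instead high in A 2, with a summed level of 1257 CPM over 4 markers against 221 to 362 CPM. On the leading principal component (500 genes of highest variance), A 2 lay at 42.4 and the other libraries between -12.5 and 12.1.

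A 2 also went against its labelled sex, and against its labelled cross in LOC100362965, a gene that followed the cross in all 23 other libraries. All rats were labelled male, and 4 Y-linked genes had 0 counts in A 2. Eif2s3y had 0 counts in A 2 and 650 to 1094 counts in each of the other 23 libraries of the series, which include 792 and 911 counts in the accumbens libraries of the same rat. LOC100362965 had 0 counts in all 12 cross B libraries and 27 to 65 counts in the 11 other cross A libraries, and A 2 had 0. The accumbens libraries of rat 2 held 27 and 46 counts of it. ENSRNOG00000048248, which had 7 counts in A 2, 8 to 12 counts in the other cross A libraries of the VTA and 0 counts in those of cross B, went with the label there. It did not follow the cross in the accumbens, where its log2 fold change was 0.48 in the core and -1.52 in the shell. Results are therefore given without A 2 (3 against 4 libraries) and, for the counts and for most named genes, also with it (4 against 4). Without A 2, A 1 was the only nicotine-injected library of cross A, against B 3 and B 4. That comparison was therefore not balanced for injection. Leaving out A 2 was decided on its expression values, so its markers are a description and not a test.

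Other libraries stood apart in tissue markers. Transcripts of the choroid plexus, the epithelium that secretes cerebrospinal fluid, summed to 16438 CPM over 11 markers in A 1 and to 2854 CPM in A 2, and to 17.5 to 30.7 CPM in the other 6 libraries. A 1 had the highest endothelial, mural and fibroblast sum, at 1404 CPM over 10 markers, and B 3 had the lowest apart from A 2, at 440 CPM. B 3 also had the highest myelin sum, at 51184 CPM over 12 markers against 23596 to 43950 CPM. In bulk tissue, fewer cells of a type and less RNA per cell cannot be told apart. Preparation batch E held only A 1 and batch F only B 3 and B 4. Batch G held A 11, A 15 and B 13, and batch L held A 2 and B 16, so without A 2 the crosses met in batch G alone.

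**Figure D1:**
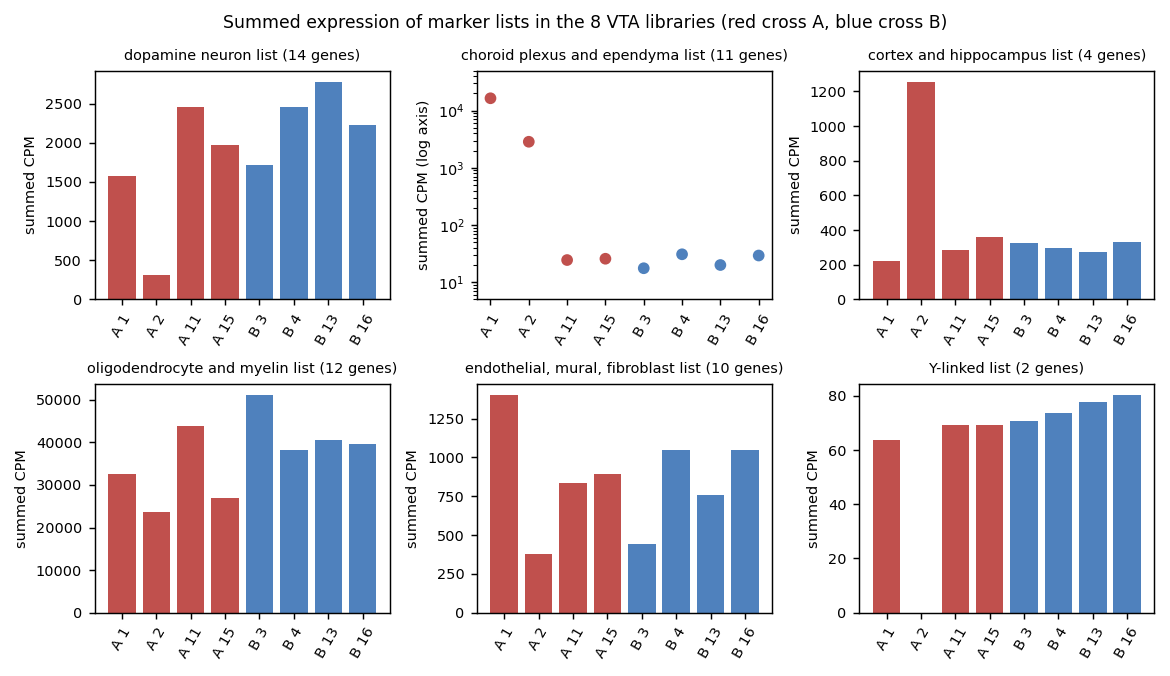
Summed CPM of 6 marker lists (vertical axes, the choroid plexus list on a log axis) in the 8 VTA libraries (horizontal axes; red, cross A; blue, cross B; 1 bar or point per library). A 2 is lowest for dopamine neuron markers at 316 CPM and at 0 CPM for the Y-linked list, and A 1 and A 2 stand far above the others for choroid plexus transcripts.

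No gene separated the crosses after correction over all genes by edgeR's quasi-likelihood test. Without A 2, 0 of 16270 genes had an adjusted p (Benjamini-Hochberg) under 0.05, and the smallest adjusted p was 0.0980. At an unadjusted p under 0.05 there were 1181 genes, 7.26% of those tested, of which 732 (4.50%) were higher and 449 (2.76%) lower in cross A. With A 2 there were 0 of 16277 genes at the adjusted threshold, a smallest adjusted p of 0.811, and 929 genes at the unadjusted level, 5.71% of those tested (606 higher, 3.72%, and 323 lower, 1.98%, in cross A). DESeq2 called 6 genes in each comparison at an adjusted p under 0.05. Both sets of 6 held Zfp142 and LOC100362965. Limma with sample weights called 1 gene without A 2, LOC100362965, and 0 with it. When injection was added to the edgeR fit, 1123 genes had an unadjusted p under 0.05 without A 2 and 695 with it. With the preparation batch in the edgeR fit without A 2, 162 genes had an unadjusted p under 0.05. Without the batch term, leaving out 1 more library moved the 1181 genes to between 577 (without B 13) and 2464 (without A 11).

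The comparisons shared 569 genes at the unadjusted level, which were 48.2% of those found without A 2 and 61.2% of those found with it, and all 569 had the same direction in both. Most differences were small: 80.5% of the genes at the unadjusted level without A 2 differed by less than 2-fold. Of the 99 that differed by at least 4-fold, 67 had their highest level in A 1. Libraries of cross A lay entirely below those of cross B in 644 genes without A 2 (3.96% of those tested) and entirely above them in 591 (3.63%). With A 2 the shares were 1.70% in each direction.

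**Figure D2:**
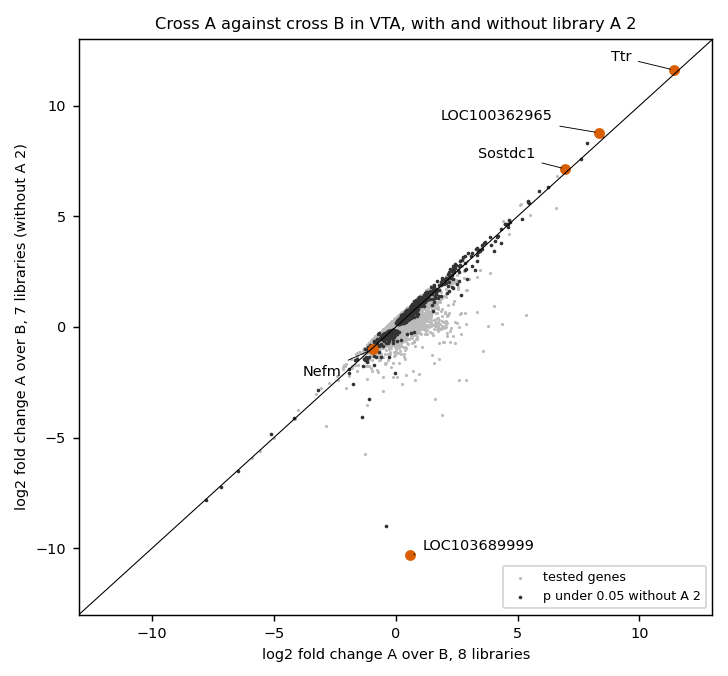
Log2 fold change, cross A over B, in the fit of 8 libraries (horizontal axis) and of 7 libraries without A 2 (vertical axis), 1 point per gene tested in both. Black points had an unadjusted p under 0.05 without A 2, and LOC103689999 lies at 0.59 with A 2 and at -10.30 without it.

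Among genes lower in cross A with complete separation of the libraries, the 10 smallest p-values without A 2 belonged to LOC103689999, Prph, Rps6ka6, Cabp1, Trappc9, Pgs1, Mvd, Sqle, Slc25a46 and Agtpbp1. Prph encodes peripherin, an intermediate filament protein of neurons. It was at 41.6, 44.0 and 44.8 CPM in A 1, A 11 and A 15 and at 61.2, 58.1, 58.2 and 56.8 CPM in B 3, B 4, B 13 and B 16. Every cross A library lay below every cross B library, and A 2 was lowest at 27.2 CPM. The log2 fold change of Prph was -0.43 (SE 0.07, unadjusted p = 0.000173, adjusted p = 0.653 by edgeR) without A 2 and -0.57 (SE 0.15, unadjusted p = 0.00384) with it. Its adjusted p by DESeq2 was 0.000398 without A 2.

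The neurofilament subunits, which fill large axons, stood in the same direction. Nefm was at 126, 280 and 333 CPM in A 1, A 11 and A 15, and at 564, 513, 478 and 423 CPM in the cross B libraries, with A 2 at 297 CPM. By edgeR, its log2 fold change was -1.01 (SE 0.29, unadjusted p = 0.00740) without A 2 and -0.93 with it, and -0.64 (SE 0.17) with the preparation batch in the fit. Nefl had 367, 677 and 843 CPM in cross A (A 2, 904 CPM) against 897 to 1268 CPM in cross B. Nefh had 245, 475 and 691 CPM (A 2, 380 CPM) against 616 to 947 CPM, where A 15 exceeded B 16. A 1 was the lowest library for all 3 subunits, and it was also the lowest of the 8 for the sum of 20 synaptic vesicle genes, at 6133 CPM against 8408 to 9942 CPM. Without both A 1 and A 2 the log2 fold changes were -0.69 for Nefm, -0.53 for Nefl, -0.47 for Nefh and -0.40 for Prph. An intermediate filament list was drawn up after the values were seen and is not independent of them. Of its 7 genes, 4 were lower in cross A at the unadjusted level without A 2, beside 4.73% of all genes that carry a symbol, and 3 lay entirely below cross B, beside 5.27%. Only 3 of the 7 carry a symbol from outside the study's own list for this comparison, and of these 1 was lower and 0 lay entirely below, with a median log2 fold change of 0.25.

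A minority of sterol synthesis genes were lower in cross A at the unadjusted level, and none passed the adjusted threshold of edgeR. Mvd, mevalonate diphosphate decarboxylase, was at 38.4, 43.5 and 39.6 CPM in A 1, A 11 and A 15 and at 51.8, 51.6, 51.0 and 47.8 CPM in cross B, and A 2 held 33.9 CPM. The groups did not overlap. The log2 fold change was -0.32 (SE 0.08, unadjusted p = 0.00277) without A 2 and -0.38 (SE 0.09, unadjusted p = 0.00210) with it. Sqle, squalene epoxidase, was at 84.0, 82.4 and 77.8 CPM against 98.3, 92.6, 100 and 103 CPM, with A 2 at 63.5 CPM. Its log2 fold change was -0.28 (SE 0.07) without A 2 and -0.36 (SE 0.10) with it. Acat2, a cytosolic thiolase at the head of the mevalonate pathway, was at 62.8, 74.1 and 67.2 CPM against 74.8 to 86.2 CPM, with A 2 at 51.9 CPM.

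Of 14 sterol synthesis genes that could be counted (another list drawn up after the values were seen), 6 were lower in cross A at the unadjusted level and 0 were higher, both with and without A 2, beside 2.85% without A 2 and 1.97% with it of the 6988 genes counted in the same way. Without A 2, every cross A library lay below every cross B library in 5 of those 14, beside 3.69% of those genes. The median log2 fold change of the 14 was -0.15 without A 2 and -0.19 with it, and -0.12 in the saline-injected rats alone, against 0.04, 0.05 and 0.02 over the 6988 genes. The median of 12 myelin genes was -0.18, -0.31 and -0.01 in the same comparisons, and its part in the sterol values was not tested. Srebf2, a transcription factor of sterol synthesis genes, had a log2 fold change of 0.12 (SE 0.08) without A 2 and 0.11 (SE 0.08) with it.

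Promoters of Mvd and Prph are shown because these were the 2 genes that were separated and lower in cross A in both comparisons by the rule of smallest p. Each run is the 300 bases around the RefSeq transcription start on the rat build GRCr8, 5′ to 3′ on the gene's strand. Capitals mark CCAAT (found in 37.5% of 33469 promoters), GGGCGG (33.1%) and TATAAA (14.2%), searched on both strands.
Mvd (chr19:67414925-67415224, minus strand): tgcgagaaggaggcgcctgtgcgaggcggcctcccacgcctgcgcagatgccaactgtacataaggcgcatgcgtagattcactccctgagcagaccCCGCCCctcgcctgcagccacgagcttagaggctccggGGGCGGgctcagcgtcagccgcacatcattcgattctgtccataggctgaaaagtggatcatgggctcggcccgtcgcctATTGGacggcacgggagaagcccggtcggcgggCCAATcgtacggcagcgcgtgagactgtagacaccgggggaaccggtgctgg
Prph (chr7:132097039-132097338, plus strand): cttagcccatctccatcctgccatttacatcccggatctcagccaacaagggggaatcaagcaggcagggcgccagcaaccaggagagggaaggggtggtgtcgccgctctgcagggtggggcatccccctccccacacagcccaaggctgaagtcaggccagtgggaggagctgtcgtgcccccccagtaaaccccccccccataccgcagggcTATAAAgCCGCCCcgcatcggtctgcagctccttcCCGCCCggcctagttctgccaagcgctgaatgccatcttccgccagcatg
The Mvd window held 2 CCAAT and 2 GGGCGG matches, and the Prph window held 1 TATAAA and 2 GGGCGG matches. The sterol response motif TCACNCCAC, present in 1.12% of the promoters, was in neither window.

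Other genes named by the smallest p were lower in cross A at the unadjusted level without A 2, and for some of them A 2 lay apart from its cross. Cabp1, a calcium-binding protein of synapses, was at 69.7, 86.9 and 90.8 CPM in A 1, A 11 and A 15 and at 117, 115, 109 and 112 CPM in cross B. Its log2 fold change was -0.46 (SE 0.10, unadjusted p = 0.00123, adjusted p by DESeq2 0.0441) without A 2. With the preparation batch also in the fit it was -0.29 (SE 0.12). A 2 held 131 CPM, above every cross B library, and with it the log2 fold change was -0.26 (unadjusted p = 0.151). Hcrtr1, the type 1 receptor for the arousal peptide orexin, was at 6.88, 8.92 and 8.42 CPM against 12.4, 12.8, 12.6 and 9.90 CPM, with A 2 at 6.65 CPM. All cross A libraries were below all cross B libraries, and the log2 fold change was -0.56 (SE 0.15) without A 2 and -0.62 (SE 0.16) with it. The same separation with and without A 2 was seen for Chmp2b, a subunit of the membrane-scission complex ESCRT-III (63.8 to 76.8 CPM in cross A and 84.5 to 89.0 CPM in cross B). Acot7, a brain acyl-CoA thioesterase (277 to 352 against 353 to 405 CPM), and Fbxo2, a ubiquitin ligase subunit that binds glycoproteins (193 to 267 against 276 to 305 CPM), were separated as well. Agtpbp1, which trims glutamate chains from tubulin, was at 152, 188 and 185 CPM against 215 to 223 CPM, while A 2 held 258 CPM. Without A 2, the log2 fold changes of Chmp2b, Acot7 and Agtpbp1 were -0.27 (SE 0.07), -0.35 (SE 0.10) and -0.33 (SE 0.09). With the preparation batch in that fit they were -0.23 (SE 0.14), -0.34 (SE 0.17) and -0.26 (SE 0.13).

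Genes higher in cross A were mostly modest in size as well. Zfp142, a zinc finger protein, was at 149, 133 and 153 CPM in A 1, A 11 and A 15, at 146 CPM in A 2, and at 114, 114, 114 and 115 CPM in cross B. All 4 cross A libraries lay above the narrow cross B range. The log2 fold change was 0.34 (SE 0.07, unadjusted p = 0.000865) without A 2 and 0.35 (SE 0.07, unadjusted p = 0.000589) with it. The adjusted p was 0.653 and 0.811 by edgeR, and 0.0441 and 0.00490 by DESeq2. Vegfa, the endothelial growth factor, was at 208, 228 and 248 CPM, with A 2 at 251 CPM, against 177 to 197 CPM in cross B. Its log2 fold change was 0.29 (SE 0.08) without A 2 and 0.32 (SE 0.08) with it. Xrn1, the main cytoplasmic exonuclease that degrades messenger RNA from its 5′ end, was at 11.2 to 14.5 CPM in the 4 cross A libraries and at 8.06 to 9.37 CPM in cross B.

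Further genes were higher in cross A at the unadjusted level without A 2. Fras1 and Frem2 encode proteins of one complex of the basement membrane. Fras1 was at 29.7, 12.5 and 24.2 CPM in A 1, A 11 and A 15 against 9.39 to 11.1 CPM in cross B, with A 2 at 10.8 CPM, inside the cross B range. Its log2 fold change was 1.11 (SE 0.25) without A 2 and 0.91 (SE 0.31) with it. Frem2 was at 3.91, 1.12 and 1.66 CPM, with A 2 at 2.11 CPM, against 0.483 to 0.900 CPM, and its log2 fold change was 1.88 (SE 0.49) without A 2, 1.86 with it and 1.20 without both A 1 and A 2. Nr2e1, a nuclear receptor of neural stem cells, was at 2.20 to 3.38 CPM in cross A and 1.45 to 1.65 CPM in cross B. Klf10, a transcription factor induced by TGF-beta, was at 8.83 to 15.2 CPM against 6.30 to 8.20 CPM. Nlrc5, the transactivator of MHC class I genes, was at 6.26, 3.73 and 5.57 CPM against 1.40 to 2.61 CPM, while A 2 held 0.776 CPM. Nav2, a protein of growing axons, was at 125, 84.9 and 116 CPM against 69.9 to 80.7 CPM, with A 2 at 77.9 CPM. The 2 entries for Cttn, cortactin, stood in opposite directions, at log2 fold changes of 0.74 and -0.31 without A 2 and 0.88 and -0.27 with it. Whether reads were divided differently between these entries was not tested.

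**Figure D3:**
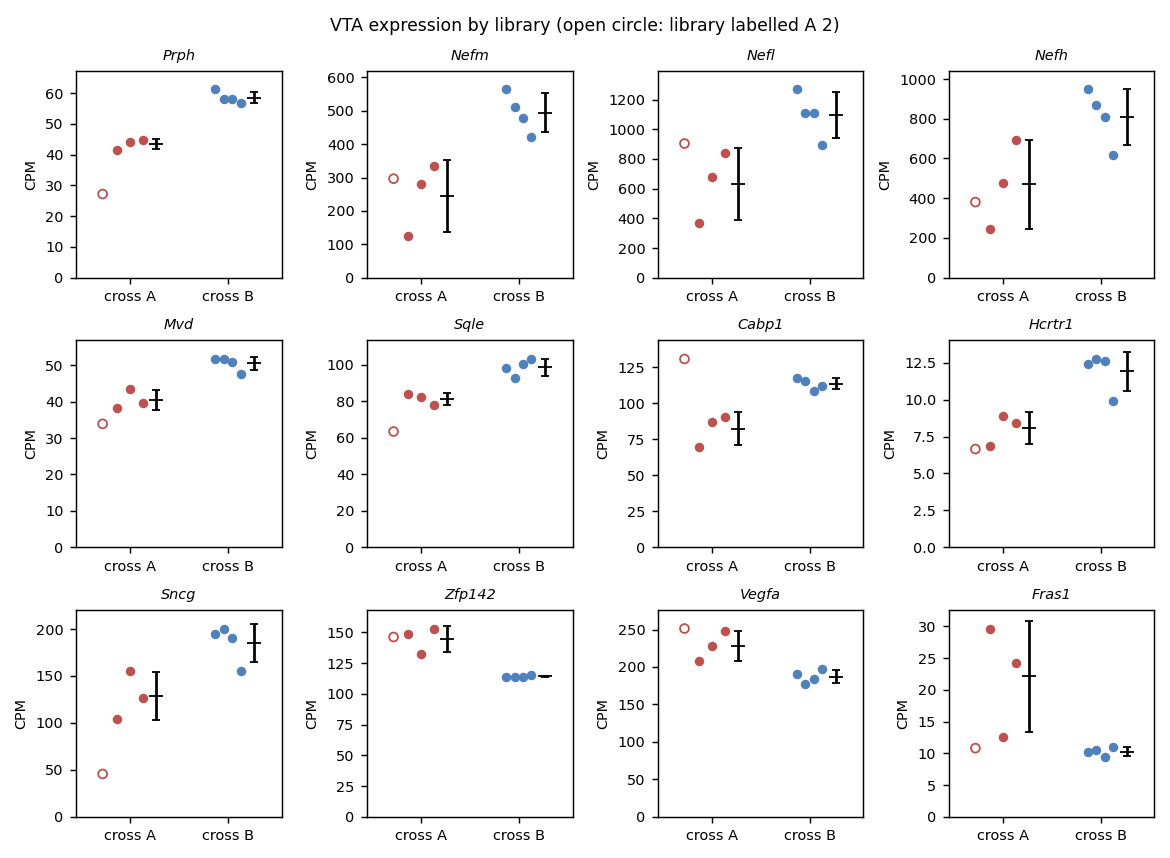
CPM (vertical axes, from 0) of 12 genes in the VTA libraries of cross A (red) and cross B (blue). Filled points are libraries, black bars the mean ± SD of 3 cross A and 4 cross B libraries, and the open circle is A 2. Without A 2 the crosses do not overlap in 11 of the 12 panels; in the Nefh panel A 15 (691 CPM) lies above B 16 (616 CPM).

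Among genes closest to the question of nicotine and dopamine, only part could be counted, and these showed few differences. Gene symbols could be given to 7462 of the 17323 gene IDs, and lists were counted over the 6988 tested genes whose symbol did not rest on the study's own list for this comparison. In those genes 8.57% had an unadjusted p under 0.05 without A 2 (5.72% higher and 2.85% lower in cross A) and 6.75% with it (4.78% higher and 1.97% lower). All cross A libraries lay above all cross B libraries in 3.99% of them and below in 3.69% without A 2, and in 1.75% and 1.63% with it. Of 26 dopamine neuron genes listed, 12 were counted. Of these 12, 0 were higher and 1 was lower, with and without A 2. Their median log2 fold change was -0.15 without A 2 and -0.50 with it. Th was not analysed here. The lower gene was Sncg, gamma-synuclein, at 104, 155 and 127 CPM in A 1, A 11 and A 15 and at 195, 201, 191 and 156 CPM in cross B, with A 2 at 45.6 CPM. Its log2 fold change was -0.53 (SE 0.14, unadjusted p = 0.00532) without A 2 and -0.78 (SE 0.31) with it. Without A 2, Slc6a3 had a log2 fold change of -0.16 (SE 0.23, unadjusted p = 0.510), Slc18a2 of -0.25 (SE 0.17), Ddc, the decarboxylase that forms dopamine, of -0.34 (SE 0.21), and Pitx3, a transcription factor of these neurons, of -0.11 (SE 0.26). With A 2 these were -0.56 (SE 0.82), -0.65 (SE 0.81), -0.72 (SE 0.61) and -0.50 (SE 0.70). For these 4 genes the ranges of the crosses overlapped.

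Of the 16 nicotinic receptor subunits listed, only Chrna1, Chrna3, Chrnb2 and Chrnb4 could be counted. Of these 4, 0 had an unadjusted p under 0.05, with or without A 2. Chrnb2, the beta subunit of the main brain receptor, was at 18.4, 23.1 and 31.9 CPM in A 1, A 11 and A 15 and at 20.7 to 28.1 CPM in cross B, a log2 fold change of 0.04 (SE 0.19). Chrna3 was at 6.26 to 9.79 CPM against 8.45 to 11.0 CPM, and at 41.8 CPM in A 2, so that its log2 fold change was -0.22 (SE 0.18) without A 2 and 0.77 (SE 0.55) with it. Chrnb4, which pairs with that subunit, was at 2.44 to 3.36 CPM against 2.30 to 4.10 CPM, and at 8.15 CPM in A 2. Of 8 genes for acetylcholine handling and receptor partners, 1 was lower without A 2 and 0 with it. That gene, Lynx1, a membrane-anchored protein that restrains nicotinic receptors, was at 329, 416 and 415 CPM against 486, 473, 486 and 432 CPM, with A 2 at 461 CPM. Lynx1 had a log2 fold change of -0.28 (SE 0.10, unadjusted p = 0.0233) without A 2 and -0.21 (SE 0.11, unadjusted p = 0.0814) with it. Of 5 dopamine, opioid and cannabinoid receptor genes, 0 had an unadjusted p under 0.05. Drd2, the D2 dopamine receptor, was at 83.4, 132 and 84.9 CPM against 95.4 to 142 CPM and at 16.2 CPM in A 2.

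Lists for other cells and processes gave few genes at the unadjusted level. Without A 2, 0 of 8 astrocyte, 0 of 8 microglia, 0 of 6 oligodendrocyte precursor, 0 of 10 endothelial, mural and fibroblast, 0 of 12 striatal neuron and 0 of 3 immediate early genes had an unadjusted p under 0.05, and with A 2 the only one was 1 higher immediate early gene. Of 12 myelin genes 1 was higher, Enpp2, which was at 1318 CPM in A 1 and at 236 to 308 CPM in the other 6 libraries apart from A 2, and with A 2 0 myelin genes were higher and 1 lower. The other 11 had log2 fold changes below 0 without A 2, and the median of the 12 was -0.18 without A 2, -0.31 with it and -0.01 in the saline-injected rats. Of 5 GABA neuron genes 1 was lower with and without A 2, Pvalb, a calcium buffer, at 163, 211 and 186 CPM against 201 to 254 CPM. Both blood genes counted were higher without A 2, and 1 with it. S100a9, a neutrophil calcium-binding protein, was at 1.95, 7.26 and 0.340 CPM in A 1, A 11 and A 15 against at most 0.582 CPM, with A 2 at 0 CPM, and Hba-a3, a haemoglobin chain, at 11.5, 9.37 and 5.28 CPM against at most 6.29 CPM, with A 2 at 5.10 CPM. Their ranges overlapped. Of 18 synaptic vesicle genes 1 was lower without A 2 (Snap25) and 1 other with it. Of 4 glucocorticoid response genes 1 was higher with and without A 2. That gene, Zbtb16, was at 4.31, 7.38 and 5.40 CPM against 2.40 to 4.38 CPM. Among 17 genes picked for PCR or named in the published work, 3 were higher in cross A and 0 lower without A 2, and 3 and 1 with it, and such a list is not independent of these libraries.

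Choroid plexus genes had large fold changes, and their high values lay in A 1 and A 2. Of 8 choroid plexus and ependyma genes counted, 7 were higher in cross A without A 2 and 6 with it. Ttr, transthyretin, the thyroid hormone carrier of cerebrospinal fluid, was at 15153 CPM in A 1, 2615 CPM in A 2, 2.49 and 2.25 CPM in A 11 and A 15, and 0.338 to 3.25 CPM in cross B. Its log2 fold change was 11.62 (SE 3.03) without A 2, 11.43 with it and 0.56 without both A 1 and A 2. Sostdc1, a secreted antagonist of BMP and Wnt signals, followed the same libraries, with 210 CPM in A 1, 35.7 CPM in A 2 and 0.241 to 0.970 CPM in the other 6. Mapk13, a p38 kinase, was at 13.98 CPM in A 1, 1.20 and 1.15 CPM in A 11 and A 15, 2.72 CPM in A 2 and 0.0966 to 0.500 CPM in cross B, and its log2 fold change without A 1 and A 2 was 1.66 (unadjusted p = 0.0180). DESeq2 called these 3 genes at an adjusted p under 0.05 with A 2. Without A 2 it gave no p for them, while its log2 fold changes were 11.63 for Ttr, 7.17 for Sostdc1 and 3.89 for Mapk13. Over the list, the median log2 fold change was 4.49 without A 2, 4.42 with it and -0.05 without A 1 and A 2.

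The genes that differed most between the crosses in kind were listed at or near 0 counts in a cross. LOC100362965, on chromosome 17 of the build used by the study (Rnor 6), was at 2.66, 2.16 and 2.77 CPM in A 1, A 11 and A 15 and had 0 counts in all 4 cross B libraries. Cross A was at least 17.2-fold higher without A 2, taking 3 counts per cross B library as the limit. ENSRNOG00000052613 had 36, 83 and 9 counts in A 1, A 11 and A 15, and 0 counts in A 2 and in all 4 cross B libraries. Its adjusted p by DESeq2 was 0.000139 without A 2. In the accumbens its log2 fold change was -0.47 in the core and 0.78 in the shell. LOC103689999, on chromosome 13, had 0 counts in A 1, A 11 and A 15 and was at 10.2, 4.51, 8.95 and 5.35 CPM in cross B, so that cross A was at least 56.5-fold lower on the same limit. It had the smallest p of the comparison without A 2 (adjusted p = 0.0980 by edgeR and 2.75e-11 by DESeq2). A 2 carried 44.1 CPM of LOC103689999, more than any cross B library. In the accumbens this gene did not follow the cross, with up to 224 counts in the other cross A libraries and from 0 to 577 counts in cross B. Estimated counts of such locus entries can be exchanged with near-identical copies, which was not tested here.

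X-linked genes were counted as a group because the crosses carry different X chromosomes. Of 227 X-linked genes counted without A 2, 9 were higher and 8 lower in cross A at the unadjusted level, beside 5.72% and 2.85% of the 6988 genes. Their median log2 fold change was -0.01 against 0.04 over the 6988 genes. With A 2, 11 were higher and 6 lower, beside 4.78% and 1.97% of the 6988 genes, and the X-linked median was 0.02. Without A 2, all cross A libraries lay below all cross B libraries in 14 of the 227, beside 3.69% of the 6988 genes, and above them in 6, beside 3.99%. Over all 245 X-linked genes with a symbol, 17 were lower and 11 higher, and 21 lay entirely below and 7 entirely above. Over all genes with a symbol, 4.73% were lower and 7.60% higher, and 5.27% lay entirely below and 4.89% entirely above. Whether the X chromosome differed from the rest was not tested. Rps6ka6, the kinase RSK4, was at 6.30, 6.43 and 7.23 CPM in A 1, A 11 and A 15 and at 9.46, 10.1, 11.3 and 12.1 CPM in cross B. A 2 held 14.9 CPM, above all 4 cross B libraries. The log2 fold change was -0.69 (SE 0.14, unadjusted p = 0.00116) without A 2 and -0.31 (SE 0.28) with it. Rps6ka6 was also lower in cross A in the same rats' NAc core (log2 fold change -1.23, unadjusted p = 4.85e-06) and NAc shell (-0.84, unadjusted p = 0.000183). Uxt, a chaperone-like transcription cofactor, was at 13.98, 12.4 and 11.7 CPM, with A 2 at 10.8 CPM, against 14.8 to 18.6 CPM. Its log2 fold change was -0.34 in the VTA without A 2 and -0.39 with it, -0.32 in the NAc core and -0.51 in the NAc shell. Eda, the signal ectodysplasin, was at 1.45 to 1.87 CPM in all 4 cross A libraries and at 2.40 to 3.52 CPM in cross B. In the other direction, Atp2b3, a plasma membrane calcium pump, was at 127, 55.3 and 85.6 CPM, with A 2 at 107 CPM, against 51.6 to 67.9 CPM, so that the groups overlapped. It had a log2 fold change of 0.63 (SE 0.24) without A 2, 0.70 (SE 0.23) with it and 0.29 (SE 0.18) without both A 1 and A 2. AABR07039328.3 was at 8.29 to 18.2 CPM in the 4 cross A libraries and at 6.40 to 8.11 CPM in cross B, and the groups did not overlap.

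The 4 Y-linked genes could be compared only without A 2. Eif2s3y, a translation initiation subunit, was at 41.4, 45.4 and 39.0 CPM in cross A and at 47.6, 48.8, 51.9 and 54.7 CPM in cross B, with no overlap and a log2 fold change of -0.27 (SE 0.09, unadjusted p = 0.0118). The Y-linked Ddx3 entry, an RNA helicase, was at 49.8, 51.6 and 54.2 CPM against 52.1 to 77.8 CPM, with overlap and a log2 fold change of -0.32 (SE 0.13, unadjusted p = 0.0361 by edgeR). Kdm5d, a histone demethylase, was at 22.3, 23.8 and 30.4 CPM against 23.0 to 25.9 CPM, a log2 fold change of 0.04 (SE 0.12), and AC241873.1 had one of 0.05. Mitochondrially encoded genes were not analysed here.

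Of 33 imprinted genes counted, 1 was higher and 3 were lower in cross A at the unadjusted level without A 2, and 0 and 2 with it. Of the 6988 genes, 5.72% were higher and 2.85% lower without A 2, and 4.78% and 1.97% with it. Over all 35 imprinted genes with a symbol, 3 were higher and 3 lower without A 2. The shares over all genes with a symbol were 7.60% and 4.73%. Trappc9, a subunit of a vesicle-tethering complex known in the mouse for maternal expression in brain, was at 45.3, 42.4 and 39.7 CPM in A 1, A 11 and A 15. In the 4 cross B libraries it was at 57.4, 56.2, 53.7 and 51.1 CPM. These groups did not overlap, while A 2 was at 54.4 CPM. Trappc9 had a log2 fold change of -0.36 (SE 0.08, unadjusted p = 0.00157) without A 2 and -0.27 (SE 0.10, unadjusted p = 0.0323) with it, -0.33 in the NAc core and -0.16 in the NAc shell. Snrpn, a splicing protein expressed from the paternal allele, was at 445, 555 and 460 CPM against 567 to 615 CPM and at 778 CPM in A 2, and its log2 fold change was -0.29 (SE 0.09) without A 2 and -0.09 (SE 0.17) with it. Ndn, necdin, which lies in the same cluster, was at 273 to 331 CPM in the 4 cross A libraries and at 326 to 376 CPM in cross B. Ube3a, a ubiquitin ligase of that cluster that neurons express from the maternal allele, was at 19.6, 26.0 and 27.4 CPM against 17.9 to 21.1 CPM, a log2 fold change of 0.33 (SE 0.14) without A 2 and 0.24 (SE 0.15) with it, where A 2 held 18.3 CPM. These are total levels, and the share of each parental allele was not analysed here. The median of the 33 genes was -0.04 without A 2 and -0.09 with it, against 0.04 and 0.05 over the 6988 genes.

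**Figure D4:**
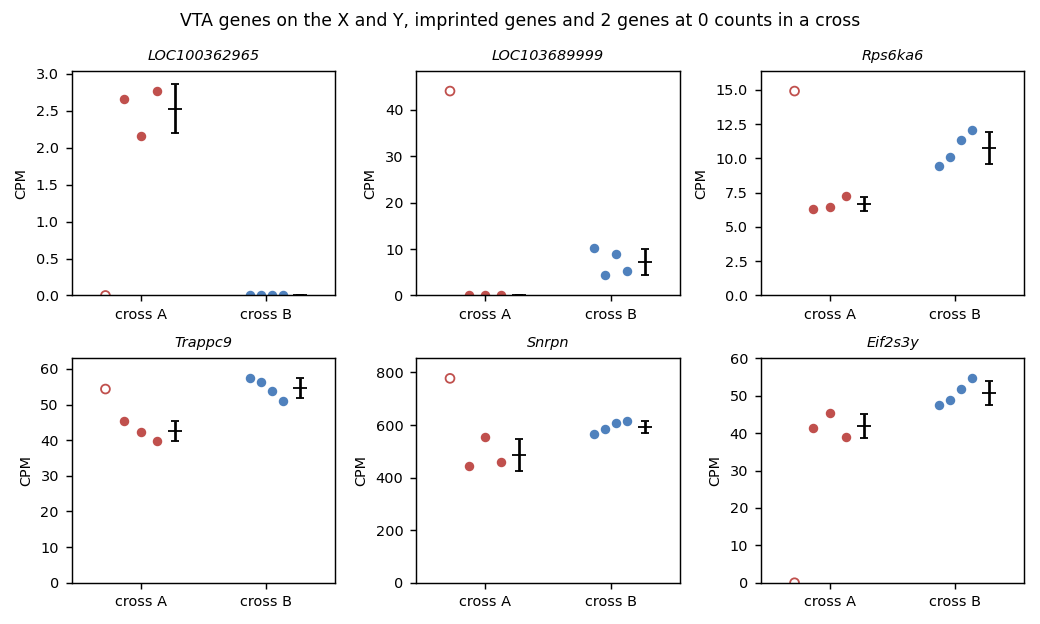
CPM (vertical axes, from 0) of 6 genes whose dosage or expression can depend on the parent, or that had 0 counts in a cross, in cross A (red) and cross B (blue). Filled points are libraries, black bars the mean ± SD without A 2, and the open circle is A 2, which lies at 0 for LOC100362965 and Eif2s3y and above cross B for LOC103689999 and Rps6ka6.

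The VTA differences were set against the NAc core and shell of the same rats by an interaction of cross and region. By edgeR, 0 of 16289 genes had an adjusted p under 0.05 for the core or for the shell. At an unadjusted p under 0.05 there were 1490 genes for the core (9.15%) and 951 for the shell (5.84%), and 1597 (9.80%) and 775 (4.76%) without all libraries of rat 2. DESeq2 called 24 genes against the core and 3 against the shell. The smallest p against the core belonged to Cptp, a lipid transfer protein, with an interaction of -0.56 on the log2 scale (-0.63 without rat 2). Cptp was at 39.2, 50.4 and 46.0 CPM in A 1, A 11 and A 15 of the VTA against 55.2 to 59.8 CPM in cross B, and its log2 fold change was -0.34 in the VTA without A 2, -0.30 with it and 0.26 in the core. Hcrtr1 had an interaction of -1.42 (-1.28 without rat 2), with a log2 fold change of 0.81 in the core. F8, coagulation factor VIII, had an interaction of 0.80 (0.71 without rat 2), and its log2 fold change was 0.31 in the VTA without A 2, 0.43 with it and -0.36 in the core. The adjusted p of all 3 was 0.459 with rat 2 and 0.468 without it.

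**Figure D5:**
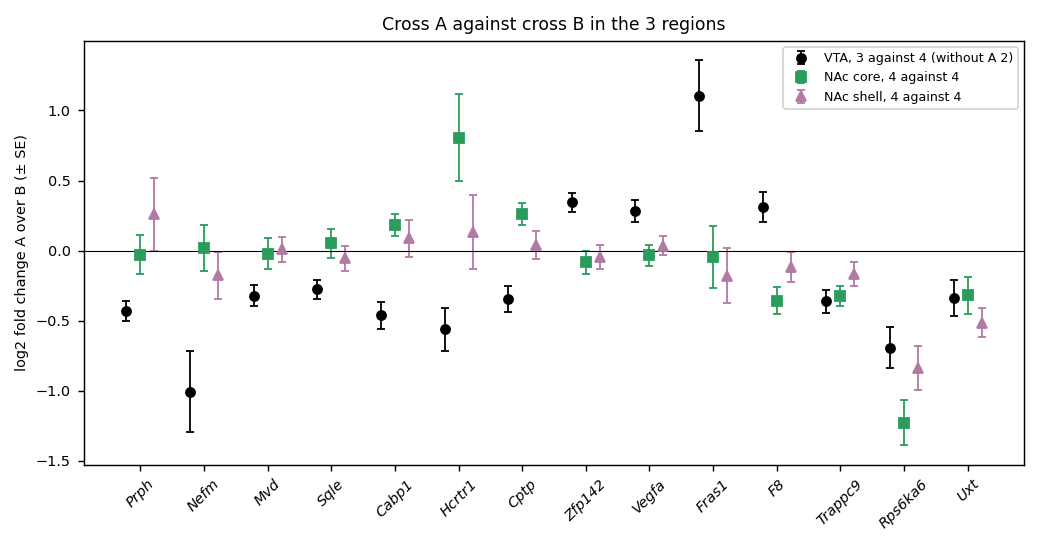
Log2 fold change of cross A over cross B (vertical axis, bars ± SE from edgeR) for 14 genes in the VTA without A 2 (black circles), NAc core (green squares) and NAc shell (purple triangles). Rps6ka6 and Uxt lie below 0 in all 3 regions, and Hcrtr1 lies at -0.56 in the VTA and at 0.81 in the NAc core.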

How the data were processed

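Total RNA from 24 dissected samples was sequenced by the study. Per the study's methods, the authors trimmed reads with fastp 0.20.0, quantified transcripts with Salmon 0.12.0 against Rnor 6 and summed them to genes with tximport. The deposited values are estimated counts per gene as whole numbers, without normalization, for 17323 Ensembl IDs, and were used as they stand; 0 columns lacked a sample. Genes with a median-ratio normalized count over 10 in at least 3 libraries were tested (16289 genes holding 99.98% of the counts; a gene at 0 in every library of a fit was left out of it). CPM were scaled by TMM over the 8 VTA libraries.

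The cross was the only term in edgeR's quasi-likelihood test (edgeR 4.0.16, R 4.3.3), with DESeq2 1.42.0 and limma 3.58.1 (voom with sample quality weights) as alternatives. Tests were two-sided, p-values were adjusted (Benjamini-Hochberg) over all genes tested, and unadjusted p-values are edgeR's unless another tool is named. Rats were separate animals. Chi-square statistics of counts were 8.59 to 136 times their degrees of freedom over the 12 replicate pairs, so no library was a copy of another in its group. Libraries of 1 rat share an animal across regions; deviations from the group means correlated at -0.03 to 0.25 between VTA and NAc core and at -0.10 to 0.19 between VTA and NAc shell, over 0.1 in 2 of 8 rats each.

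The deposited table holds IDs alone and RefSeq's table matched 0 of them. Symbols and chromosomes were taken from the study's supplementary gene lists (43.1% of IDs), which name only genes listed in some comparison. Genes were named by list membership, or as up to 10 per direction with the smallest p among those with separated crosses and a mean of at least 1 CPM, for 10 counts against at most 3, by an adjusted p under 0.05 in DESeq2, or as the 3 smallest p-values of each interaction; not all are printed. Members and lists were chosen with earlier results of these data known. Limits at 0 counts (3 counts) cover counting error only.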

Additional observations from a re-analysis of the deposited data

Results flagged for a closer look

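The values here were flagged because the highest or lowest library of a cross lay far from the other 3 (Dixon's test); 18 of 169 sets compared were flagged, and chance flags about 1 in 20. No explanation was tested. The values of A 2 are a description only, since that library had already been singled out on its expression, and their distance from the other libraries restates that choice.

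In cross A, A 2 stood apart in the summed levels of cortex and hippocampus markers (1257 CPM), immediate early genes (32.0 CPM) and Y-linked genes (0 CPM), and on the leading principal component (42.4). It was also apart for Rps6ka6 (14.9 CPM), Chrna3 (41.8 CPM), Chrnb4 (8.15 CPM), LOC103689999 (44.1 CPM) and Eif2s3y (0 CPM). A 1 stood apart for Mapk13 (13.98 CPM) and Sostdc1 (210 CPM).

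In cross B, B 16 was apart for Frem2 (0.900 CPM), Nr2e1 (1.65 CPM), Hcrtr1 (9.90 CPM), Chmp2b (89.0 CPM) and Acot7 (353 CPM), where it was nearest to cross A for all but Chmp2b. B 4 was highest for Ccdc9b (10.9 CPM). B 3 was lowest for the sum of 5 glucocorticoid response genes (123 CPM, against 189 to 192 CPM in the other 3).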

How the results depend on the processing

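With and without A 2, edgeR called 0 genes at an adjusted p under 0.05 under every other scaling, filter, covariate and subset of libraries that was run. DESeq2 called 6 genes in each comparison, and 24 genes for the interaction with the NAc core and 3 with the NAc shell, while limma with sample weights called 1 gene without A 2. At an unadjusted p under 0.05, the 929 genes found with A 2 became 492 in the saline-injected rats alone and 2121 in a fit over all 24 libraries. Leaving out 1 library gave 409 to 1802 genes (without A 11, 1802; B 3, 511; B 4, 475; B 13, 409). The 1181 genes found without A 2 became 162 with the preparation batch as a covariate, 766 with limma and 492 in the saline-injected rats alone, a setting added after seeing the data. Leaving out 1 more library gave 577 (without B 13) to 2464 (without A 11). For the interactions the ranges were 864 (without rat 13) to 2294 (without rat 11) for the core, with 950 without rat 3, and 532 (without rat 3) to 1345 (without rat 11) for the shell, with 624 without rat 4. The causes were not tested.

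The log2 fold change of LOC103689999 with A 2 was 0.59. It was -7.34 with limma, -10.30 without A 2 and in the saline-injected rats, -10.44 without both batch L libraries and -10.29 without A 1 and A 2 (added after seeing the data); over single libraries left out it ranged from -10.30 to 1.01. Sostdc1 without A 2 turned to -0.18 when A 1 and B 3 were also left out, a setting added after seeing the data. Over the named genes and all alternatives, an unadjusted p moved from under 0.05 to above it 113 times without A 2 and 80 times with it, and the other way 4 and 60 times.

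No paired analysis was possible because the crosses share no rat, for the comparison within the VTA. With the rat as a replicate block, the interactions had 1511 genes (core) and 866 genes (shell) at an unadjusted p under 0.05 and 0 at the adjusted threshold, and this changed no call of the comparison. Depth limits genes near 0 counts, where 3 counts were taken as the limit.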
